A study of Mus musculus with 2 samples.

Results

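Transcripts of 8 genes of the sperm mitochondrial sheath were followed through the germ cells of 2 adult mice by single-cell RNA sequencing of dissociated testis tissue. A small part of the testis was taken and its cell suspension was strained to reduce the somatic cells. The genes were Smcp, Gpx4, Spata19, Gk2, Gykl1, Tbc1d21, Vdac2 and Vdac3. They were taken by symbol from the deposited count matrix, in which all 8 were found among 50686 genes. The matrix held 2552 cells, 1237 from mouse 1 and 1315 from mouse 2, and each mouse gave 1 droplet library. Both animals were wild-type C57Bl/6J Crl males at 8 weeks of age, without treatment, so that the samples form a single group and the comparisons run between cell groups within the testis.

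The mitochondrial sheath is the helix of mitochondria that wraps the outer dense fibres in the midpiece of the sperm tail. It forms late in spermiogenesis, when the mitochondria of the elongating spermatid gather around the flagellum, become crescent-shaped and lock end to end. Its proteins include channels of the outer mitochondrial membrane, enzymes and adaptors needed for the ordered coiling, and the cysteine- and selenium-rich capsule that hardens the outer membrane in the mature cell. Transcription ceases when the spermatid nucleus condenses, and many spermatid messages are stored before they are translated. RNA levels and the time of assembly can therefore differ.

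The 8 genes differ in structure. On the GRCm38 build with GENCODE annotation, Smcp lies at chr3:92583867-92588997 on the minus strand in 2 exons. Tbc1d21 lies at chr9:58359704-58370455 on the minus strand in 11 exons, and Spata19 at chr9:27396800-27401785 on the plus strand in 6 or 7 exons. Gpx4 lies at chr10:80047166-80056439 on the plus strand with 6 or 7 exons. Vdac2 at chr14:21825238-21845879 and Vdac3 at chr8:22577075-22593813, on the plus and minus strand, are ordinary multi-exon genes. The glycerol kinase genes Gk2, at chr5:97455142-97457021 on the minus strand, and Gykl1 each consist of a single exon.

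RefSeq promoter windows on GRCm38.p6, which cover the 250 bases before the start of transcription, were matched for 5 of the 8 genes (Smcp, Gpx4, Spata19, Gk2 and Tbc1d21). Windows of Smcp, Spata19 and Tbc1d21, whose RNA first rose after the pachytene group, are shown beside that of Gk2, whose RNA was already high in the pachytene group, because these genes set out the early and the late pattern described below. They lie at chr3:92589074-92589323 (minus strand, Smcp), chr9:27396557-27396806 (plus strand, Spata19), chr9:58370456-58370705 (minus strand, Tbc1d21) and chr5:97457024-97457273 (minus strand, Gk2). Capitals mark each match to AACNG, the core recognised by MYB-family factors, on either strand. The sequences are written 5′ to 3′ on the strand of the gene.
Smcp: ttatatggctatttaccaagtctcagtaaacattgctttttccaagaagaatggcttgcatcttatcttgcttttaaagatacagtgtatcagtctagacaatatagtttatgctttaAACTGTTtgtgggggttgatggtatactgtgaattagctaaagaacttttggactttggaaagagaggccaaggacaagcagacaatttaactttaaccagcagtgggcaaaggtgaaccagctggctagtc
Spata19: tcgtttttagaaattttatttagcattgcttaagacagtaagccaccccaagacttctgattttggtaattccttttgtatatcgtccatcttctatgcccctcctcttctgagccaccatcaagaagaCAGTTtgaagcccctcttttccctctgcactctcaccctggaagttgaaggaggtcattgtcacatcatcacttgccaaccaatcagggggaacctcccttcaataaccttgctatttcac
Tbc1d21: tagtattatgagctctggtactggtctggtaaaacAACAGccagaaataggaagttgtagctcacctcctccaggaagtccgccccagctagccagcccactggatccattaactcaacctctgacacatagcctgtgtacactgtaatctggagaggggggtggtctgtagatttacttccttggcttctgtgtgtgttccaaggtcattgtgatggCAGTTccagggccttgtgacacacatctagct
Gk2: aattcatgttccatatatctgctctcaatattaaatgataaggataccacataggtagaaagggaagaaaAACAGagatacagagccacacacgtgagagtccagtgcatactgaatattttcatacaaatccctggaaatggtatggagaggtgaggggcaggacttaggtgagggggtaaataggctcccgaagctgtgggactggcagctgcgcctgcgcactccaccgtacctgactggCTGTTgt
The Smcp window held 2 such matches that overlap, the Spata19 window shown 1, and the Tbc1d21 and Gk2 windows 2 each. AACNG was present in 74.2% of 32851 mouse promoter windows of this length. A second Spata19 window, at chr9:27396962-27397211 and not shown, held 2 matches. None of the 4 windows shown held TGACGTCA, the cAMP response element, its core TGACG, or the TATA box letters TATAAA, which were present on either strand in 1.55%, 17.8% and 12.4% of all windows. Of the 4 Gpx4 windows, 3 held TGACG once each. Those at chr10:80053315-80053564 and chr10:80053409-80053658 overlap and share the same match, so the 3 are not separate sites. The window before the annotated start of the gene, at chr10:80046916-80047165, held none. A match or its absence is a description of these letters and was not tied to binding of any factor.

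Cells were grouped without the 8 genes, so that the groups do not rest on them, although genes of the same cells that vary with them were used. K-means clustering gave 6 germ cell groups of at least 50 cells and 3 small clusters. In order along pseudotime, a position computed from the similarity of cells, the groups were 163 early spermatocyte-like cells, 526 pachytene or later spermatocyte-like cells, 689 cells that remained unnamed, 448 round spermatid-like cells, and 193 earlier and 514 later elongating or condensing spermatid-like cells. They are called here the early spermatocyte, pachytene, unnamed, round, earlier condensing and later condensing groups. The unnamed group passed none of the 10 round spermatid markers and was led by Ssxb3, Ssxb1 and Ssxb2. The other 5 passed between 6 and 10 of 10 markers of their class. The earlier condensing group had a mean scaled marker level of 0.92 for its class and of 0.79 for round spermatids, so it lies close to both. The small clusters were 7 Sertoli-like, 7 spermatogonium-like and 5 Leydig-like cells. The libraries held 27450497 and 30302332 UMIs (unique molecular identifiers, each standing for 1 captured RNA molecule), and no barcode was shared between the mice. The median per cell was 17871 and 19184 UMIs in the mice, and 11718 UMIs in the later condensing group. Levels are given as CPM, the UMIs of a gene per 1000000 UMIs summed over a group in 1 mouse. The reads come from the 3′ end of transcripts, so CPM was not divided by gene length.

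All 8 genes were abundant. Over all cells they received between 11702 UMIs (Tbc1d21) and 112351 UMIs (Smcp), and each was found in 75.2% (Tbc1d21) to 99.9% (Gpx4) of the cells. Their summed share of all UMIs was 0.263% and 0.279% in the early spermatocyte groups of mouse 1 and mouse 2, 0.505% and 0.502% in the pachytene groups, and 1.22% and 1.42% in the later condensing groups. Within this sum the makeup changed. Smcp supplied 3.28% and 3.83% of the UMIs on the 8 genes in the pachytene groups and 55.8% and 64.6% in the later condensing groups.

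The channel genes Vdac2 and Vdac3 had their highest levels in the pachytene group. They encode voltage-dependent anion channels, the pores through which metabolites cross the outer mitochondrial membrane. In mouse 1, Vdac2 stood at 769.8, 1565, 1526, 945, 374 and 89.1 CPM from the early spermatocyte to the later condensing group. In mouse 2 the corresponding values were 888, 1654, 1444, 937, 359 and 93.6 CPM. In both mice the pachytene and unnamed groups were high and the later condensing group was lowest. Vdac2 rose by 1.19 ± 0.14 (SE) on the log2 scale from the early spermatocyte to the pachytene group (adjusted p = 2.4e-07, edgeR's quasi-likelihood test with Benjamini-Hochberg adjustment, as for all adjusted p below). It fell by 0.37 ± 0.13 on the log2 scale from the unnamed to the round group (edgeR adjusted p = 0.0271), by 0.90 ± 0.14 to the earlier condensing group (edgeR adjusted p = 1.1e-05) and by 1.41 ± 0.15 to the later one (edgeR adjusted p = 7.9e-08).

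Vdac3 followed the same course at a lower UMI level. Its values in mouse 1 were 376, 634, 628, 411, 184 and 99.9 CPM in the same order of groups. Mouse 2 gave 426, 653, 643, 416, 199 and 105.1 CPM. The log2 fold change was 0.91 ± 0.13 from the early spermatocyte to the pachytene group (edgeR adjusted p = 6.6e-06), -0.33 ± 0.13 from the unnamed to the round group (edgeR adjusted p = 0.0414, or 0.0514 without the filter on low counts) and -0.65 ± 0.14 to the earlier condensing group (edgeR adjusted p = 0.000400). From the earlier to the later condensing group it was -0.31 ± 0.14 and did not pass (edgeR adjusted p = 0.0934), whereas with the mouse as a block it did (log2 -0.31, edgeR adjusted p = 0.0450). Between the pachytene and unnamed groups neither channel gene passed the test (log2 -0.033 ± 0.13 for Vdac2 and 0.065 ± 0.13 for Vdac3, edgeR adjusted p = 0.847 and 0.681).

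The few somatic cells also held UMIs of both channels. In the Sertoli-like cells, 6 in mouse 1 and 1 in mouse 2, Vdac2 stood at 551 and 573 CPM and Vdac3 at 469 and 491 CPM. These rest on 40 and 7 UMIs of Vdac2 and 34 and 6 UMIs of Vdac3. The single Sertoli-like cell of mouse 2 also held Smcp at 2291 CPM, Prm2 at 8099 CPM, Prm1 at 2782 CPM and Tnp1 at 491 CPM, but 0 UMIs of Spata19 and Tbc1d21. The Sertoli-like cells of mouse 1 held Smcp at 165 CPM, Prm2 at 799 CPM, Prm1 at 2494 CPM and Tnp1 at 854 CPM. RNA of spermatids was thus present in the Sertoli-like cells of both mice. The Leydig-like cells, 1 in mouse 1 and 4 in mouse 2, held 1 and 7 UMIs of Vdac2 and 1 UMI of Vdac3 in each mouse. The part of free RNA in these counts was not tested. The third channel gene, Vdac1, received 55 UMIs in all cells and was not among the genes tested.

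The glycerol kinase genes split from each other during spermatid development. Gk2 and Gykl1 encode testis forms of glycerol kinase, which are needed for the proper arrangement of the mitochondria in the sheath. Gk2 stood at 281, 1016, 1020.4, 858, 448 and 58.3 CPM in mouse 1 from the early spermatocyte to the later condensing group. Mouse 2 gave 345, 1001, 1051, 861, 484 and 62.7 CPM. The rise into the pachytene group had the largest estimate of the 8 genes in that comparison (log2 1.91 ± 0.15, edgeR adjusted p = 8.0e-10). The level in the following pair of comparisons did not pass the test (log2 0.12 ± 0.14 and 0.015 ± 0.14, edgeR adjusted p = 0.468 and 0.949). Gk2 then fell by 0.42 ± 0.14 on the log2 scale into the earlier condensing group (edgeR adjusted p = 0.0197), a call that was lost with Leiden clusters and without called doublets, and by 2.35 ± 0.16 into the later one (edgeR adjusted p = 1.3e-10).

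Gykl1, at chr18:52693690-52695550 on the plus strand, peaked later and was kept longer. Its levels in mouse 1 were 178, 486, 766, 800.1, 574 and 230.0 CPM. In mouse 2 they were 196, 493, 798, 841, 597 and 245 CPM. The highest level was thus in the round group of both mice. It rose by 1.61 ± 0.14 on the log2 scale into the pachytene group (edgeR adjusted p = 4.1e-09) and by 0.76 ± 0.13 into the unnamed group (edgeR adjusted p = 3.0e-05). A further step of 0.35 ± 0.13 into the round group passed narrowly (edgeR adjusted p = 0.0307) and was not called in 5 of the alternatives. From the round to the earlier condensing group the log2 fold change was -0.025 ± 0.13 (edgeR adjusted p = 0.903), against -0.49 when library totals replaced the TMM scaling (edgeR adjusted p = 0.000856). It fell by 0.71 ± 0.13 into the later condensing group (edgeR adjusted p = 0.000194).

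The ratio of a gene pair in the same cells does not depend on how the libraries are scaled. The log2 ratio of Gk2 to Gykl1 UMIs was 0.74 ± 0.11 (mean ± SD, n = 2 mice) in the early spermatocyte group, 1.04 ± 0.030 in the pachytene group, 0.41 ± 0.012 in the unnamed group and 0.067 ± 0.047 in the round group. It was -0.33 ± 0.040 in the earlier and -1.97 ± 0.011 in the later condensing group. Gk2 therefore exceeded Gykl1 in the early spermatocyte and pachytene groups, and Gykl1 exceeded Gk2 in the earlier and later condensing groups, in both mice. The log2 ratio of Vdac2 to Vdac3 stayed between 0.94 ± 0.12 and 1.32 ± 0.027 in the first 5 groups. It was -0.17 ± 0.00087 in the last, where both genes were near 100 CPM. That value rests on 321 UMIs of Vdac2 and 360 of Vdac3 in mouse 1, and on 294 and 330 in mouse 2. The exact Poisson intervals of the 2 genes overlapped there, at 79.6 to 99.4 and 89.8 to 110.8 CPM in mouse 1. In mouse 2 they overlapped as well, at 83.2 to 104.9 and 94.0 to 117.0 CPM. The SD between the mice leaves out this counting error, and a ratio below 0 was not tested. The drop in each ratio at the last step was larger than the spread between the mice. No test was made of the ratios, since 2 animals per group allow no useful exact test.

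**Figure D1:**
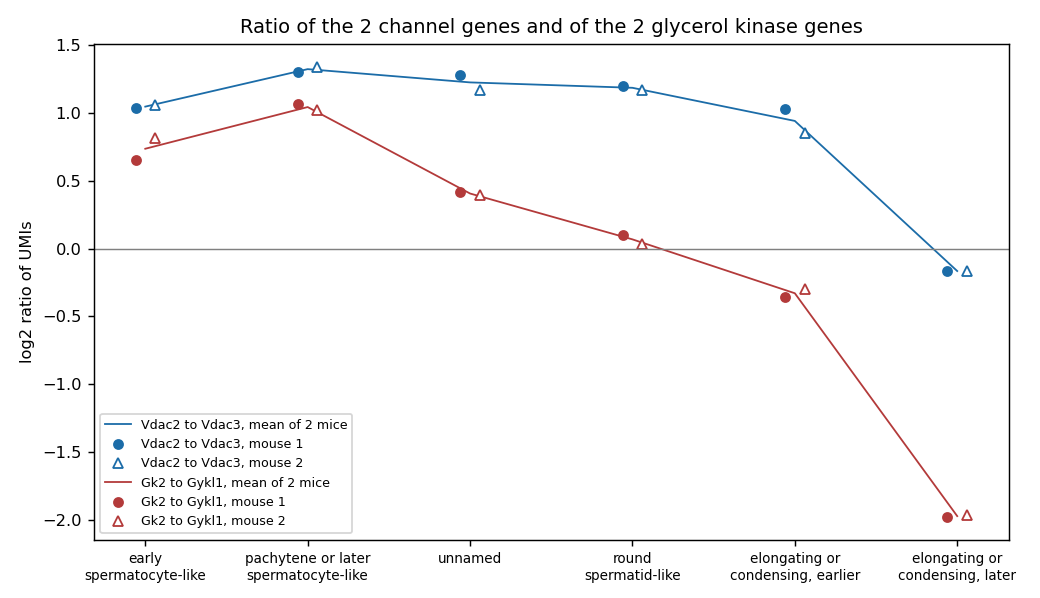
Log2 ratio of UMIs (y axis) of Vdac2 to Vdac3 and of Gk2 to Gykl1 in the 6 germ cell groups in pseudotime order (x axis), with 1 symbol per mouse and a line through the mean of the 2 mice. The Gk2 to Gykl1 ratio goes from 1.04 in the pachytene group to -1.97 in the later condensing group, and the Vdac2 to Vdac3 ratio stays near 1 until the last group.

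Tbc1d21 and Spata19 represent the assembly factors. Tbc1d21 is a testis protein with a Rab GTPase-activating domain, and Spata19 is a mitochondrial protein of spermatids, and loss of either disturbs the sheath. Tbc1d21 stood at 23.1, 9.78, 112, 372, 499.6 and 363 CPM in mouse 1. Mouse 2 gave 23.1, 14.2, 157, 442, 540.1 and 418 CPM. Both mice had the highest level in the earlier condensing group. The step from the pachytene to the unnamed group had the largest estimate of any of the 8 genes in any of the 5 comparisons, with a log2 fold change of 3.59 ± 0.20 (edgeR adjusted p = 5.4e-13). It rose by a further 1.88 ± 0.17 into the round group (edgeR adjusted p = 6.2e-09) and by 0.81 ± 0.17 into the earlier condensing group (edgeR adjusted p = 0.000299). The last of these was 0.35 with library totals (edgeR adjusted p = 0.0659). From the earlier to the later condensing group the log2 fold change was 0.18 ± 0.17 (edgeR adjusted p = 0.420), against -0.42 with library totals, which was called lower (edgeR adjusted p = 0.0394).

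Spata19 ran in parallel at a higher level. In mouse 1 it stood at 114, 60.5, 411, 1186, 2007 and 2572 CPM. In mouse 2 it stood at 66.1, 57.2, 493, 1272, 2086 and 2318 CPM. The levels of both mice ascend from the pachytene group to the last group. The log2 fold changes were 3.02 ± 0.18 into the unnamed group (edgeR adjusted p = 2.0e-12), 1.73 ± 0.17 into the round group (edgeR adjusted p = 1.9e-08), 1.20 ± 0.17 into the earlier condensing group (edgeR adjusted p = 2.7e-06) and 0.85 ± 0.16 into the later one (edgeR adjusted p = 0.000224). The last step was 0.25 with library totals and not called (edgeR adjusted p = 0.225), and the molecules per cell went the other way, as described below.

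Smcp had the most UMIs of the 8 genes. It encodes the sperm mitochondria-associated cysteine-rich protein of the capsule. Mouse 1 gave 203, 166, 749, 2038, 3623 and 6829.7 CPM from the early spermatocyte to the later condensing group. Mouse 2 gave 188, 192, 1025, 2343, 4141 and 9201 CPM. The largest level was 41.1-fold the smallest in mouse 1 and 48.9-fold in mouse 2. The first comparison did not pass (log2 0.11 ± 0.19, edgeR adjusted p = 0.664). Each later one did, with log2 fold changes of 2.40 ± 0.19, 1.59 ± 0.19, 1.29 ± 0.19 and 1.64 ± 0.19 in the order of the groups (edgeR adjusted p = 3.5e-10, 2.9e-07, 4.3e-06 and 2.7e-07).

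Gpx4 varied least in CPM. It encodes a selenium-dependent glutathione peroxidase that protects lipids in many cells and becomes a structural part of the capsule in sperm. Its levels in mouse 1 were 689, 1118, 1075, 1163, 1146 and 1999.6 CPM. Mouse 2 gave 658, 949.8, 862, 923, 964 and 1802 CPM. Between the pachytene and earlier condensing groups the level stayed within 1075 to 1163 CPM in mouse 1 and within 862 to 964 CPM in mouse 2, and the largest level was 2.90-fold and 2.74-fold the smallest. The test called a rise of 0.86 ± 0.16 on the log2 scale into the pachytene group (edgeR adjusted p = 0.0001005) and of 1.45 ± 0.16 from the earlier to the later condensing group (edgeR adjusted p = 1.8e-07). The smaller steps into the round group (log2 0.39 ± 0.16, edgeR adjusted p = 0.0447) and the earlier condensing group (log2 0.47 ± 0.16, edgeR adjusted p = 0.0170) were 0.11 and 0.015 with library totals and were then not called (edgeR adjusted p = 0.556 and 0.944). The step into the round group was lost in 5 alternatives in all, and the step into the earlier condensing group had a log2 value of -0.012 without the filter on low counts.

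The Gpx4 count is uncertain because of a near-identical copy. Over the last 300 bases of the transcript, the row RP23-269H21.1, annotated by GENCODE as the pseudogene Gpx4-ps2, matched Gpx4 in 99.667% of positions. It received 4699 UMIs, or 7.44% of the Gpx4 count. Its level was 66.5 and 44.2 CPM in the early spermatocyte groups of the mice and 165 and 127 CPM in the later condensing groups. Both rows together gave 2165 and 1929 CPM in the last groups. The authors describe reads that map to several places as open to exclusion, so reads that match both rows may be missing from both counts. The sum therefore need not restore the level of Gpx4. How many reads were left out or counted for the copy was not tested. The counts are also per gene, and the 3 protein-coding transcripts of Gpx4 were not told apart. A copy of Vdac2, Gm7832, received only 66 UMIs. Gk2 overlaps 4930467D21Rik and Vdac2 overlaps Comtd1 on the opposite strand.

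**Figure D2:**
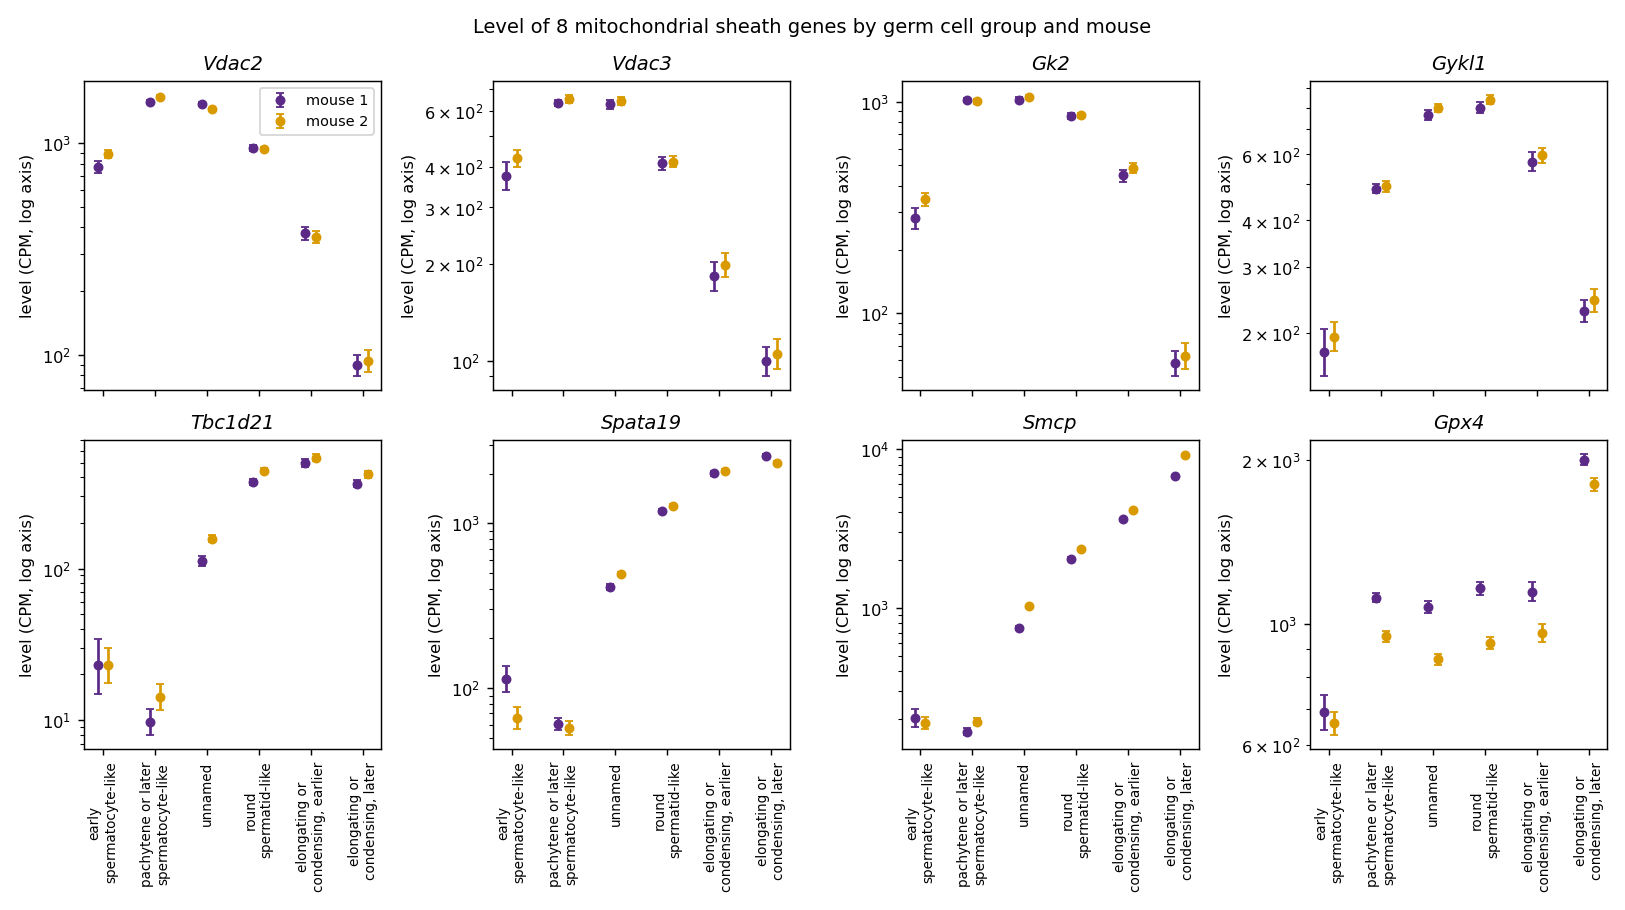
Level of each of the 8 genes in CPM (y axis, log scale, 1 panel per gene with its own range) in the 6 germ cell groups (x axis), with 1 point per mouse and the exact 95% Poisson interval of its count as error bar. Vdac2 and Vdac3 are highest in the pachytene group, Gk2 in the pachytene and unnamed groups, Gykl1 in the round group and Tbc1d21 in the earlier condensing group, while Smcp, Spata19 and Gpx4 are highest in the last group.

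Across all genes, adjacent groups differed widely, and the counts of the 8 genes are read against that background. All other genes tested, including those of the lists below, helped form the groups, whereas the 8 were left out. The calls of those other genes are therefore not independent of the grouping. From the early spermatocyte to the pachytene group, 5 of the 8 rose (Gpx4, Gk2, Gykl1, Vdac2 and Vdac3) and 1 fell (Tbc1d21), where 25.6% of 13879 genes tested rose and 25% fell. The Tbc1d21 call (log2 -0.74 ± 0.26, edgeR adjusted p = 0.0202) was lost without the filter on low counts, with Leiden clusters and without called doublets. From the pachytene to the unnamed group, 4 rose (Smcp, Spata19, Gykl1 and Tbc1d21) and 0 were called lower by edgeR, where 32.4% of all genes rose and 30% fell. The number lower was also 0 at an unadjusted p under 0.05 and 0 with DESeq2. The other 4 genes had log2 fold changes between -0.033 and 0.12 there.

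Into the round group, 5 rose (the 4 above and Gpx4) and 2 fell (Vdac2 and Vdac3), with 26.6% and 19% in the background. Into the earlier condensing group, 4 rose (Smcp, Gpx4, Spata19 and Tbc1d21) and 3 fell (Gk2, Vdac2 and Vdac3), with 22.9% and 21.9% in the background. Into the later condensing group, 3 rose (Smcp, Gpx4 and Spata19) and 3 fell (Gk2, Gykl1 and Vdac2), with 16.4% and 23.2% in the background. The median log2 fold change of the 8 genes in these 5 comparisons was 0.89, 0.44, 0.37, 0.22 and -0.062, beside 0, -0.014, -0.024, -0.11 and 0 for all genes tested.

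These splits depend on the scaling. TMM scaling, which assumes that most genes do not change, used factors from 1.66 in the early spermatocyte group of mouse 1 to 0.490 in the later condensing group of mouse 2. Relative to CPM it shifted the median of all genes by 0.24, 0.083, 0.28, 0.46 and 0.60 on the log2 scale in the 5 comparisons in order. With library totals, 5 of the 8 genes rose and 2 fell in the first comparison (20.2% and 31.4% of all genes), 4 and 0 in the second (30.9% and 33.7%), and 3 and 2 in the third (22% and 32.8%). In the fourth, 2 rose and 4 fell (17.5% and 39.2%), and in the last 2 rose and 5 fell (6.07% and 36.6%). Smcp was called higher in the last 4 comparisons on both scalings. Vdac2 was called lower in the last 3 comparisons on both.

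The choice of measure moved the values most in the last comparison. The later condensing cells averaged 12691 and 13655 UMIs per cell, against 23951 and 26163 in the earlier condensing cells. Relative to the mean number of UMIs per cell, TMM scaling shifted the median of all genes by 1.53 on the log2 scale. Smcp went from 86.8 to 86.7 molecules per cell in mouse 1 and from 108 to 126 in mouse 2, while its CPM was 0.91 and 1.15 higher on the log2 scale. Gpx4 went from 27.4 to 25.4 and from 25.2 to 24.6 molecules per cell. The called rise of Smcp and Gpx4 in share of the RNA thus stood beside changes of 0.11 and -0.074 on the log2 scale in molecules per cell. Spata19 went from 48.1 to 32.6 and from 54.6 to 31.7 molecules per cell, and Tbc1d21 from 11.97 to 4.61 and from 14.1 to 5.71. The molecules per cell of Gk2 went from 10.7 to 0.739 and from 12.7 to 0.857. Fewer molecules per cell and a lower capture rate of RNA from condensed cells cannot be told apart here.

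**Figure D3:**
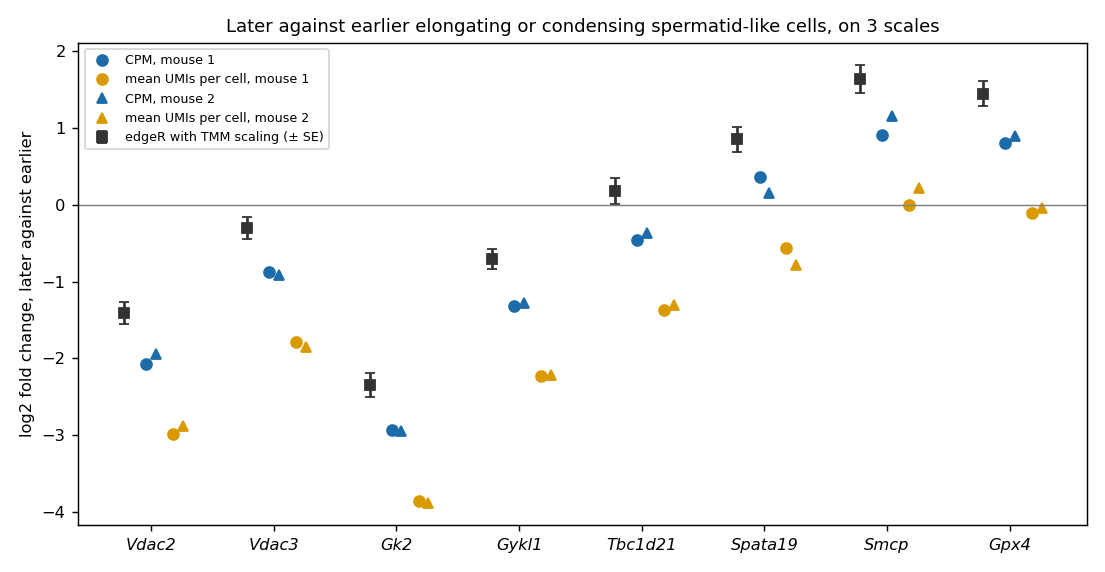
Log2 fold change from the earlier to the later condensing group (y axis) for each of the 8 genes (x axis) on 3 scales, with edgeR's estimate and its SE as squares and the CPM and UMIs per cell of each mouse as circles and triangles. Smcp and Gpx4 lie above 0 by edgeR and CPM and near 0 in UMIs per cell, Spata19 and Tbc1d21 change sign between scales, and Vdac2, Vdac3, Gk2 and Gykl1 lie below 0 on all 3.

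By molecules per cell, the group with the highest value also moved for some genes. Gpx4 was then highest in the pachytene group (38.0 and 32.3 per cell), as were Gk2 (34.5 and 34.1), Vdac2 (53.1 and 56.3) and Vdac3 (21.5 and 22.2). Spata19 and Tbc1d21 were highest in the earlier condensing group and Gykl1 in the round group (18.2 and 19.7 per cell). For Smcp the highest group was the earlier condensing one in mouse 1 and the later one in mouse 2.

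To describe the timing without the clusters, the 2533 germ cells of the 6 groups were cut into 20 equal bins of the pseudotime order. The onset is the first bin in which a gene reached 50% of its own highest CPM. Vdac3 reached it in bin 1 of both mice, Vdac2 and Gk2 in bin 2 and Gykl1 in bin 3. Tbc1d21 reached it in bin 12, Spata19 in bin 14 and Smcp in bins 16 and 17 of mouse 1 and mouse 2. An early and a late set were thus separated by the gap from bin 3 to bin 12 in both mice. Gpx4 gave no stable onset, at bin 2 in mouse 1 and bin 17 in mouse 2, because its long plateau lay near 50% of the maximum.

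The early genes were also lost at different positions. The last bin at or above 50% was bin 14 and bin 13 for Vdac3 in mouse 1 and mouse 2, bin 13 in both for Vdac2, bin 15 in both for Gk2, and bins 16 and 17 for Gykl1. The highest bin was 5 in both mice for Vdac3, 7 and 3 for Vdac2, 8 and 7 for Gk2, and 11 and 13 for Gykl1. In the late set the highest bin was 15 and 16 for Tbc1d21, 18 in both mice for Spata19 and 20 in both for Smcp. Gpx4, placed in neither set for want of a stable onset, was also highest in bin 20 of both mice. By the highest bin and the last bin at 50%, Vdac2 and Vdac3 were not separated beyond the spread of the mice. Their onsets differed by position, at bin 2 for Vdac2 and bin 1 for Vdac3 in both mice. In bin 1, however, both genes lay near the 50% limit. Vdac3 stood there at 51.1% and 54.4% of its maximum and Vdac2 at 42.6% and 43.5%. An onset before bin 1 could not be seen. Bins 15 to 20 hold mostly condensing cells and bins 6 to 10 mostly the unnamed group.

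**Figure D4:**
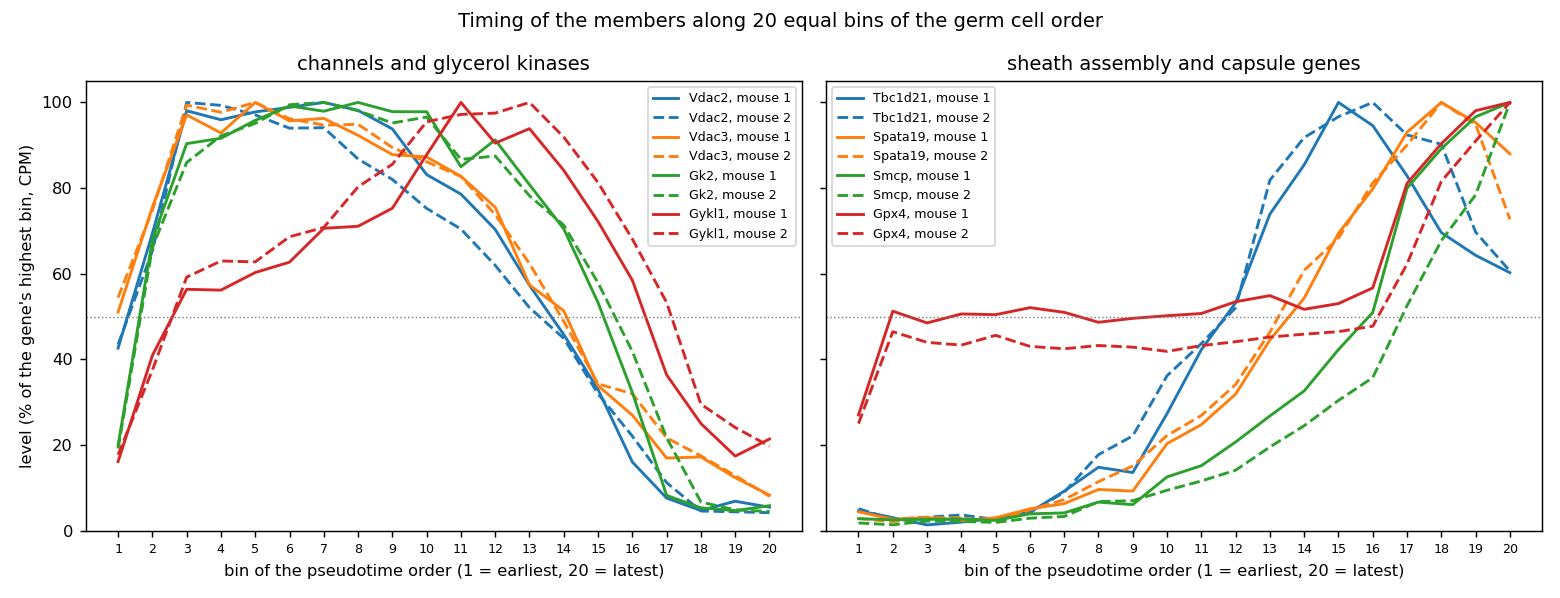
Level in 20 equal bins of the pseudotime order (x axis) as a percentage of the highest bin of each gene and mouse (y axis), with a solid line for mouse 1 and a dashed line for mouse 2; the dotted line marks 50%. The channel and glycerol kinase genes are at or above 50% by bin 3 and below it by bin 18, whereas Tbc1d21, Spata19 and Smcp cross it between bins 12 and 17.

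Low levels of the late genes in spermatocytes were set beside those of the protamine genes Prm1 and Prm2 and the transition protein gene Tnp1, which spermatocytes should lack and which can be caught as free RNA in droplets. In the pachytene groups of mouse 1 and mouse 2, Prm1 stood at 1.59% and 1.59% of its level in the later condensing group, Prm2 at 2.02% and 1.92% and Tnp1 at 1.59% and 1.61%. Smcp stood at 2.43% and 2.09%, Spata19 at 2.35% and 2.47% and Tbc1d21 at 2.69% and 3.40%. On this scale all 3 stood above the reference genes in pachytene cells of both mice, Smcp and Spata19 by less than 1 percentage point. For Tbc1d21 this depends on the group taken as reference, because its level was highest in the earlier condensing group. Relative to that highest level it stood at 1.96% and 2.63%, and the value in mouse 1 is below the 2.02% of Prm2. The scale is also not equal for the sheath and reference genes. In the round groups Smcp already stood at 29.8% and 25.5% of the last group, Spata19 at 46.1% and 54.9% and Tbc1d21 at 103% and 106%. Prm1, Prm2 and Tnp1 stood there between 2.99% and 5.63%. The order of the genes in pachytene cells therefore cannot tell free RNA from RNA of these cells.

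The unnamed group differed. Smcp stood there at 11.0% and 11.1% of the later condensing level, Spata19 at 15.97% and 21.3% and Tbc1d21 at 30.7% and 37.6%. Prm1 stood at 2.86% and 2.67%, Prm2 at 3.43% and 3.16% and Tnp1 at 3.03% and 2.78%. In the early spermatocyte groups Smcp stood at 2.98% and 2.05%, Spata19 at 4.42% and 2.85% and Tbc1d21 at 6.36% and 5.53%. Prm1 stood there at 3.28% and 2.04%, Prm2 at 3.54% and 2.14% and Tnp1 at 3.66% and 2.18%. Smcp was thus below all 3 reference genes in mouse 1 and below Prm2 and Tnp1 in mouse 2. The part of free RNA in these low levels was not tested. After thinning each cell to 5000 UMIs, which no cell fell below, Tbc1d21 was detected in 9.6% and 9.9% of early spermatocyte-like cells, 7.2% and 9.1% of pachytene cells, 37.5% and 51.3% of unnamed cells and 91.9% and 96.3% of earlier condensing cells. Gk2 was detected in 97.4% and 99.5% of pachytene cells and 24.6% and 21.7% of later condensing cells after thinning. In the 5 Leydig-like cells no Gk2 UMI was found.

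**Figure D5:**
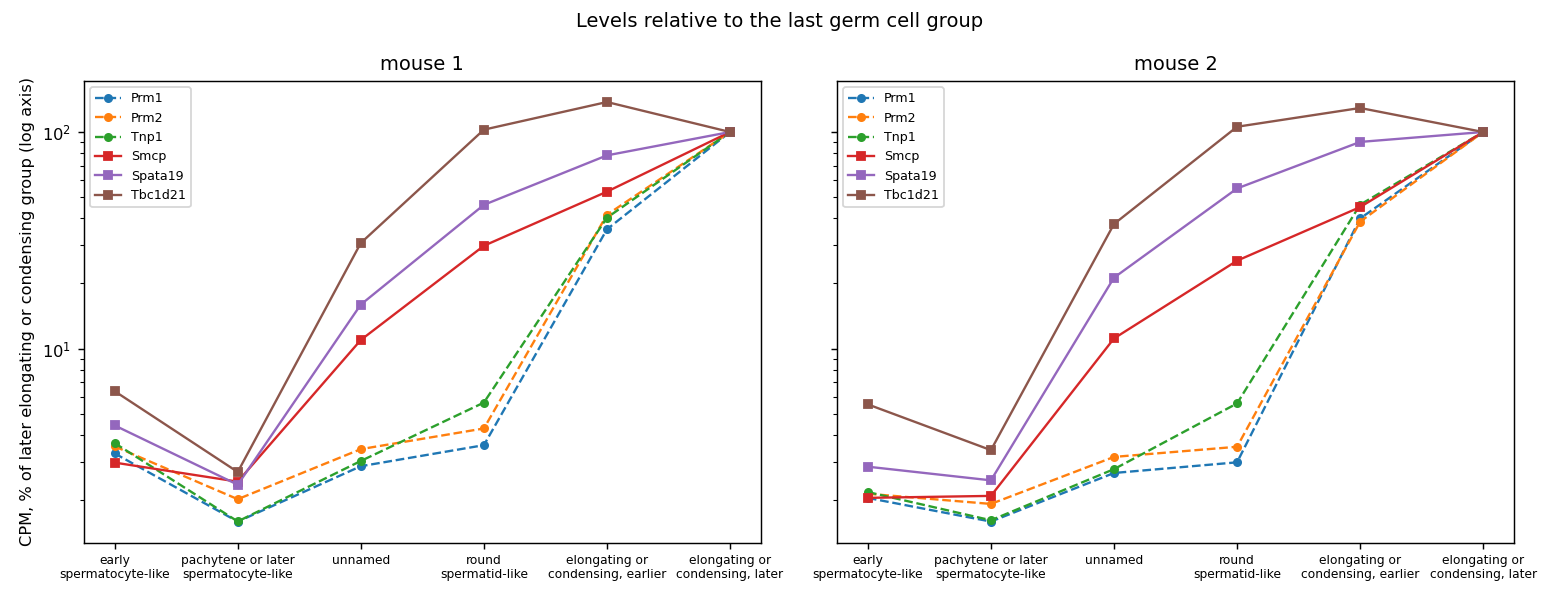
CPM of Prm1, Prm2 and Tnp1 (dashed) and of Smcp, Spata19 and Tbc1d21 (solid) as a percentage of the level in the later condensing group (y axis, log scale) over the 6 germ cell groups (x axis), 1 panel per mouse. All 6 lie between about 1.59% and 3.40% in the pachytene group, and the sheath genes lie above the other 3 in the unnamed and round groups, with Tbc1d21 at 30.7% and 37.6% in the unnamed group. In the earlier condensing group of mouse 2, Smcp (45.0%) lies below Tnp1 (46.2%), and every gene is at 100% in the last group by construction, as the reference.

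Some genes differed between the mice in the same direction in most groups. Gpx4 was lower in mouse 2 in 6 of 6 groups, with a log2 ratio of mouse 2 to mouse 1 from -0.067 to -0.33. Smcp was higher in mouse 2 in 5 of 6 groups, by up to 0.45 in the unnamed group. Tbc1d21 was higher in mouse 2 in 6 of 6 groups, by 0.0014 to 0.54, with the largest ratio at the low level of the pachytene group. Gykl1 and Vdac3 were also higher in mouse 2 in 6 of 6 groups, but by no more than 0.14 and 0.18. Over genes with at least 100 UMIs in each mouse, the median absolute log2 ratio was between 0.107 and 0.175 in the groups, and the 90th percentile between 0.316 and 0.442. With 1 library per mouse, a difference between animals and one between libraries cannot be told apart.

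Over the 12 sums (6 groups in 2 mice), some of the 8 genes ran together and others ran opposite. On log2(CPM + 10), Pearson's r was 0.988 between Vdac2 and Vdac3, 0.984 between Smcp and Spata19 and 0.983 between Spata19 and Tbc1d21. It was 0.757 between Gk2 and Gykl1 and -0.797 between Smcp and Vdac3. Gykl1 and Gpx4 stood apart from each other (r = -0.056). These are descriptions of sums that share libraries and cell groups, and carry no test.

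Among 7896 other genes with at least 500 UMIs, the 3 closest in course were named for each gene. For Tbc1d21 they were Col22a1, BC048671 and Armc12, with r from 0.9975 to 0.9995. For Smcp they were Vsig1, Spata6, which is needed for the head-to-tail connection of sperm, and Oaz3 (r from 0.9978 to 0.9990), of which Oaz3 was also a marker used to name the condensing groups. For Spata19 they were Ica1, 1700019D03Rik and Ccdc70. Gk2 was closest to the cilia genes Cfap206 and Rsph9 and to Trim69 (r from 0.991 to 0.997), and Gykl1 to 1700003H04Rik, Atp5s and Tekt4, a gene of the sperm tail. Vdac2 was closest to Lrwd1, Ccdc13 and Hagh, and Vdac3 to Cox11, Dhx40 and Ube2l3. Gpx4 had no partner as close, with r of 0.949 for Tsacc, 0.938 for RP23-269H21.1, its near copy, and 0.937 for Cystm1.

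Other genes of sheath assembly and the midpiece were not of one course. Of 8 listed genes, all tested, 4 rose and 3 fell from the pachytene to the unnamed group, and 4 rose and 1 fell into the earlier condensing group. With library totals the counts were the same in the first of these and 2 and 1 in the other. Of all genes tested, 32.4% rose and 30% fell in the first, and 22.9% and 21.9% in the other. With library totals these shares were 30.9% and 33.7% in the first, and 17.5% and 39.2% in the other. Into the later condensing group 4 rose and 0 fell, and with library totals 0 rose and 2 fell. The shares of all genes tested were 16.4% and 23.2% there, or 6.07% and 36.6% with library totals. Armc12, a protein needed for elongation of the sheath, went with Tbc1d21 at 19.7 and 19.3 CPM in the pachytene groups, 138 and 178 in the unnamed groups and 473 and 507 in the earlier condensing groups. It rose in each of the last 4 comparisons, with log2 fold changes of 3.10 ± 0.16, 1.63 ± 0.14, 0.74 ± 0.14 and 0.45 ± 0.14, of which the last pair were 0.28 and -0.15 with library totals and not called. Klc3, a kinesin light chain that binds mitochondria in spermatids, came later. It stood at 3.03 and 4.79 CPM in the round groups and at 83.5 and 99.7 in the earlier condensing groups (log2 4.97 ± 0.22), and Nectin2, an adhesion protein of the spermatid surface, took the same step (log2 4.13 ± 0.23). Sept4, a septin of the annulus that borders the midpiece, rose into the unnamed, round and earlier condensing groups (log2 2.84 ± 0.22, 1.83 ± 0.17 and 0.51 ± 0.17, the last of which was 0.045 with library totals). Pld6 and Gopc were highest in the early spermatocyte groups, at 149 and 137 CPM and at 61.0 and 59.5 CPM, and fell in the first 3 comparisons on both scalings.

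The glutathione and selenium genes had mixed courses. Into the pachytene group, where Gpx4 rose, Txnrd3 (log2 1.298 ± 0.13) and Secisbp2 (log2 0.69 ± 0.21, not called with library totals) rose as well. Secisbp2 binds the selenocysteine insertion element. Each was the only gene of its list to rise there. Of the 6 genes for making and inserting selenocysteine, 1 rose and 3 fell, or 0 and 4 with library totals. Of the 7 glutathione genes tested, 1 rose and 0 fell on both scalings. Of all genes tested, 25.6% rose and 25% fell there, or 20.2% and 31.4% with library totals. Txnrd3, a thioredoxin glutathione reductase of the testis, stood at 711 and 675 CPM in the pachytene groups and at 68.3 and 62.7 CPM in the later condensing groups, and fell in each of the last 3 comparisons on both scalings. The other glutathione peroxidase genes tested were Gpx6 and Gpx8. Gpx6 (2427 UMIs) was highest in the round groups at 94.0 and 96.7 CPM. Gpx8 received only 101 UMIs and was highest in the unnamed groups at 3.40 and 5.64 CPM. Gpx1, Gpx2, Gpx3, Gpx5 and Gpx7 received at most 88 UMIs each and were not tested. Of the 6 genes for making and inserting selenocysteine, all tested, 5 fell into the later condensing group, where Gpx4 rose again, and the sixth, Trnau1ap, had a log2 fold change of -0.23 ± 0.57. The number that fell was also 5 with library totals. Of all genes tested, 23.2% fell into the later condensing group, or 36.6% with library totals. Of the 7 glutathione genes tested, 2 fell there and 5 were not called. Of the selenocysteine genes, Sephs2, which makes the selenium donor, went from 382 and 402 CPM in the pachytene groups to 30.2 and 25.5 CPM in the later condensing groups.

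In glycerol metabolism 3 of 8 listed genes were tested. The mitochondrial glycerol-3-phosphate dehydrogenase gene Gpd2, whose enzyme uses the product of glycerol kinase, rose in each of the last 4 comparisons, of which the last was 0.11 and not called with library totals, and stood at 839.6 and 830.1 CPM in the later condensing groups. Aqp7, a channel for glycerol, rose in the 3 comparisons from the unnamed to the earlier condensing group, where it stood at 463 and 569 CPM and where the step was 0.34 and not called with library totals. Pgp, a phosphatase gene and the listed gene with the most UMIs (128571), had another course. It was highest in the pachytene groups at 2660.3 and 2885 CPM, and rose into the pachytene group (log2 1.142 ± 0.16) and the later condensing group (log2 1.19 ± 0.16) on both scalings. The widely expressed kinase gene Gk received 37 UMIs and Gk5 42, and neither was tested.

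Other genes of the outer mitochondrial membrane and of fusion and fission moved in both directions. Of 11 tested membrane genes, 3 rose and 3 fell into the later condensing group, or 2 and 4 with library totals. Of all genes tested, 16.4% rose and 23.2% fell there, or 6.07% and 36.6% with library totals. Tomm22, a receptor for imported proteins, had a course like the channels, at 1437 and 1471 CPM in the pachytene groups and 94.6 and 92.7 CPM in the later condensing groups. Hk1, a hexokinase with a sperm form, rose in all 5 comparisons (log2 1.10 ± 0.18, 1.48 ± 0.16, 1.03 ± 0.16, 0.62 ± 0.15 and 1.28 ± 0.16), the fourth of which was 0.15 and not called with library totals. Of 9 tested fusion and fission genes, 4 rose and 2 fell into the pachytene group, where 25.6% of all genes rose and 25% fell. Into the later condensing group 3 rose and 3 fell, and with library totals the 3 rises were lost and 4 fell. Dnm1l, the fission GTPase, fell by 2.41 ± 0.18 on the log2 scale into the pachytene group and rose by 2.68 ± 0.17 into the unnamed group, and both calls stood with library totals. Opa1, which fuses inner membranes, fell by 2.18 ± 0.36 into the later condensing group. These lists are counted beside the percentages of all genes given above, and nothing particular is read from them.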

How the data were processed

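Strained cell suspensions from a part of the testis of 2 mice were measured with 1 droplet library each. The UMI counts deposited by the authors are integers for every gene in every cell and were not normalized. They were made with Cell Ranger 2.0.0 after bcl2fastq 2.17.1.14 on a repeat-masked mm10 genome with Ensembl genes and repeat sequences. Reads were downsampled to an equal mean per cell when the mice were combined, which left different median UMI counts, and the number at the end of each barcode gave the mouse. All 2552 cells were kept. The genes and lists were chosen with earlier results of these data known.

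Counts of 27782 rows, without the 8 genes, were scaled, log-transformed and reduced to 10 components for K-means (K = 9, seed 42, 10 restarts). A cluster was named when at least 3 listed markers had 1.5 times the CPM of all cells, a rule set after the clusters had been seen. Scrublet called 25 doublets, which were kept. Diffusion pseudotime (15 neighbours) started from the early spermatocyte-like cell with the highest early marker score. A first rule, the extreme of a diffusion component, had placed these cells after the pachytene group and was replaced for that reason.

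UMIs were summed over 6 groups and 2 mice into 12 sums. Each group was compared with the one before it by edgeR 4.0.16 (quasi-likelihood test, TMM, filterByExpr, R 4.3.3), with a shared spread, Benjamini-Hochberg adjustment over 13879 genes and a threshold of 0.05. Each SE was computed from this test, as the size of the log2 fold change over the square root of its F statistic. On simulated data with 200 of 13528 genes changed 4-fold in the round against unnamed comparison, edgeR recovered 194 with 13 false calls, and DESeq2 1.42.0 recovered 192 with 2. All other genes were set equal between these groups and each sum was drawn independently. The simulation thus covers only the case that TMM assumes. In the real comparison 26.6% of genes were called higher and 19% lower. The sums of a mouse share the animal, and the deviations of the 15 pairs of groups correlated at 0.024 to 0.22. The mouse was therefore fitted as a block as an alternative. Since each mouse is 1 library, p-values measure the spread between these 2 animals and their libraries.

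Poisson intervals (exact, 95%) cover counting error only. Named genes were the 8, all genes of the lists, the 3 closest in course (log2 of CPM plus 10, at least 500 UMIs), and Prm1, Prm2 and Tnp1. Library totals and UMIs per cell as scales were alternatives added after the data were seen, and marking AACNG in capitals was chosen after the other motifs had no match in the printed windows. Python 3.11.15, scanpy 1.11.5 and scikit-learn 1.9.0 were used. The authors' cell assignments and comparisons were not used here.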

Additional observations from a re-analysis of the deposited data

How the results depend on the processing

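Of 40 log2 fold changes of the 8 genes, those above 1 in size kept their direction in every alternative run except that of Gpx4 into the later condensing group. With mean UMIs per cell, that value was -0.074 and those of Spata19 and Tbc1d21 in the same comparison were -0.67 and -1.34. Library totals gave Tbc1d21 -0.42 there (edgeR adjusted p = 0.0394) and 5 genes lower. A block for the mouse made the fold change of Vdac3 into the later condensing group pass (log2 -0.31, edgeR adjusted p = 0.0450) and changed no other call. Leaving out mouse 1 or mouse 2 gave folds with no test, and reversed only Gk2 into the round group (-0.022 without mouse 1, 0.054 without mouse 2).

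In the first comparison the count of genes lower was 2 with DESeq2 and library totals and 0 without the filter, with Leiden clusters and without doublets. Smcp was -0.18 with DESeq2 and -0.14 with library totals, and Spata19 was 0.29 without doublets and 0.11 in UMIs per cell. In the second, Gpx4 and Vdac2 were 0.035 and 0.015 with DESeq2. Gk2 was -0.079 with Leiden, -0.12 without doublets and -0.70 in UMIs per cell, Gykl1 was -0.060 in UMIs per cell, and Vdac3 was -0.014, -0.098, -0.18 and -0.75 with library totals, Leiden, no doublets and UMIs per cell. In the third, 3 genes were higher without the filter, with library totals, another seed, Leiden and without doublets, and 1 was lower without the filter. Gk2 was there -0.053, -0.27, -0.021, -0.071 and -0.10 in these 5 settings in order and -0.095 in UMIs per cell. In the fourth, 2 were higher without the filter and with library totals. Gpx4 was -0.012 without the filter, and Gykl1 0.051, 0.018 and 0.0081 with DESeq2, another seed and Leiden. The cause of these changes was not tested.

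Onset and peak positions kept within the SD of the 2 mice in 98 of 128 recomputed values. Of those kept, 16 without mouse 1 and 16 without mouse 2 could not have moved. Each is the value of the other mouse, which always lies within that SD, so they tell nothing about stability. The Gpx4 onset, with an SD of 10.6 bins, could also shift far and still count as kept. The 30 that moved included 10 in UMIs per cell, where Gpx4 peaked in bin 4 and Smcp in bin 18. The small clusters hold too few cells for a comparison.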
